A study of Mus musculus with 2 samples.

Results

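The nuclear receptors are transcription factors that mostly bind small fat-soluble molecules such as bile acids, oxysterols, fatty acids, retinoids, steroids and thyroid hormone. They act together with coregulators, which are coactivators and corepressors recruited to the bound receptor. In liver these receptors set bile acid, lipid, glucose and drug metabolism, and many of them bind DNA as a pair with a retinoid X receptor. A list of 40 genes was followed here, 35 nuclear receptor genes and 5 coregulator genes, and its members were found as all probe sets that the array annotation assigns to exactly that gene symbol. Of the 40 genes, 38 had at least 1 such probe set, 107 probe sets in all, among 18193 named genes on the array. Nr1h2 and Ncor1 had no probe set of their own by this rule and were not analysed here.

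Both groups were livers of female wild-type C57BL/6 mice aged 8 weeks, taken 24 h after surgery. In the AKI (acute kidney injury) group both kidneys were made ischemic for 30 min at body temperature and then reperfused, and in the sham group the operation was a sham. For each group, 100 mg of frozen liver from each of 3 mice went into 1 pool, and each pool was hybridised to 1 Affymetrix array, so there are 2 arrays and no replicate. Variation between mice cannot be estimated, no test between the pools exists, and "higher" and "lower" describe these 2 pools of whole liver. Fewer cells of a type and less RNA per cell cannot be told apart in such tissue.

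The array median was 231.8 on the AKI array and 225.7 on the sham array over non-control probe sets. Differences are given as log2 of (signal + 71.8) in the AKI pool minus the same in the sham pool, with 71.8, the 25th percentile of all signals, as pseudocount. This scale understates the differences of weak genes. Where a gene had several probe sets, the one with the highest mean level stands for it. A gene passed the level filter when that probe set reached the array median on at least 1 array, which 13128 genes did. Repeat measures exist only where several probe sets target a gene, and the SD of their differences within genes was 0.70 over 5149 genes, from 0.92 in the lowest to 0.57 in the highest of 4 level classes. It leaves out the animals. Marker genes of hepatocytes were strong in both pools, with 6 of 8 listed markers measured, none below a signal of 43523 on the AKI array or 57301 on the sham array. Their summed signal in the AKI pool was 0.75 times that in the sham pool. Summed over 7 measured of 8 neutrophil markers the signal was 6663 in the AKI pool and 2052 in the sham pool. Of the 5 past the filter, S100a8, S100a9 and Ngp were at least 2-fold higher, Elane was at 0.76 and Mpo at -0.03. Over 8 Kupffer cell and macrophage markers the sum was 8190 in the AKI pool and 12852 in the sham pool. Of these 8, 6 were below 0, and Marco (1.46) and Cd68 (0.62) were above it. The sums over 8 endothelial markers were 6676 in the AKI pool and 9711 in the sham pool. Of these, Clec4g alone had 674.0 in the AKI pool and 3086.1 in the sham pool. Of the 8, 5 were below 0, and Lyve1 (1.79), Cdh5 (0.52) and Pecam1 (0.18) were above it. Over 8 stellate cell markers the sums were 19759 in the AKI pool and 13753 in the sham pool. Dcn alone had 14722.2 in the AKI pool and 7724.9 in the sham pool. Of the 7 markers past the filter, 6 were below 0 (median -0.15). Col3a1 (-0.02), Des (-0.06), Reln (-0.15) and Col1a2 (-0.26) were among these 6. Des, Reln and Col1a2 also had probe sets past the filter up to 1.44, 0.92 and 0.50. Cholangiocyte markers (4 of 6 measured) summed to 2800 in the AKI pool and 1112 in the sham pool, of which Sox9 gave 1729.9 in the AKI pool and 229.2 in the sham pool. T cell markers (5 of 7) summed to 2620 in the AKI pool and 1678 in the sham pool, of which Cd8a gave 2221.2 in the AKI pool and 1229.3 in the sham pool, while the other 4 were below the filter with differences from -0.22 to -0.03. B cell markers (4 of 5) summed to 2826 in the AKI pool and 2872 in the sham pool. No marker was at 0 on either array. The part of these shifts in the results below was not tested.

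Among the nuclear receptors and coregulators, 7 were lower in the AKI pool by 4-fold or more on the probe set standing for the gene. They include the bile acid receptor gene Nr1h4, the orphan receptor genes Nr0b2 and Nr2f6, the drug receptor gene Nr1i3 and the coactivator gene Ppargc1b. The mineralocorticoid receptor gene Nr3c2 and the fatty acid receptor gene Ppara were also among them. Ppara is at that limit (-2.01) and its other 2 probe sets are short of it, and Nr3c2 was at -1.20 with a higher pseudocount. Nr1h3, Nr5a2 and Rxra were between 2-fold and 4-fold lower. No member that passed the level filter was 2-fold higher on the probe set that stands for it. Another probe set past the filter was, for Nr4a2 (1.96) and for Esr1 (1.64). Of the 38 measured members, 32 passed the level filter, 26 of them on both arrays, 5 on the sham array alone and 1, Nr4a2, on the AKI array alone. Among the 32, 10 were at least 2-fold lower (31.25%, against 12.4% of all genes past the filter) and 0 were at least 2-fold higher (against 10.4%). At 4-fold lower there were 7 of 32, or 21.9%, against 2.37% of all genes, and at 4-fold higher 0 of 32, against 2.09%. The 4-fold lower count was 4 with the table median as pseudocount, where Ppara, Nr1h4 and Nr3c2 drop out, and 5 with centring on hybridization controls. The median difference of the 32 was -0.66, and that of all genes past the filter was -0.02. The list was chosen with earlier results of these data known, and how far that choice bears on these shares was not tested. A member that passed through the sham array alone had to be lower in the AKI pool, and 4 of the 10 did so (Nr0b2, Nr2f6, Nr3c2 and Ppargc1b). Without any level filter 10 of 38 members were at least 2-fold lower, or 26.3%, against 10.3% of all named genes, and 7 were at least 4-fold lower, or 18.4%, against 1.71%. Then 2 were at least 2-fold higher, Vdr and Rara, or 5.26%, against 9.23%. Of the members past 2-fold Rxra (-1.31) had the smallest difference, and of those short of it Nr2f2 (-0.94) had the largest.

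**Figure D1:**
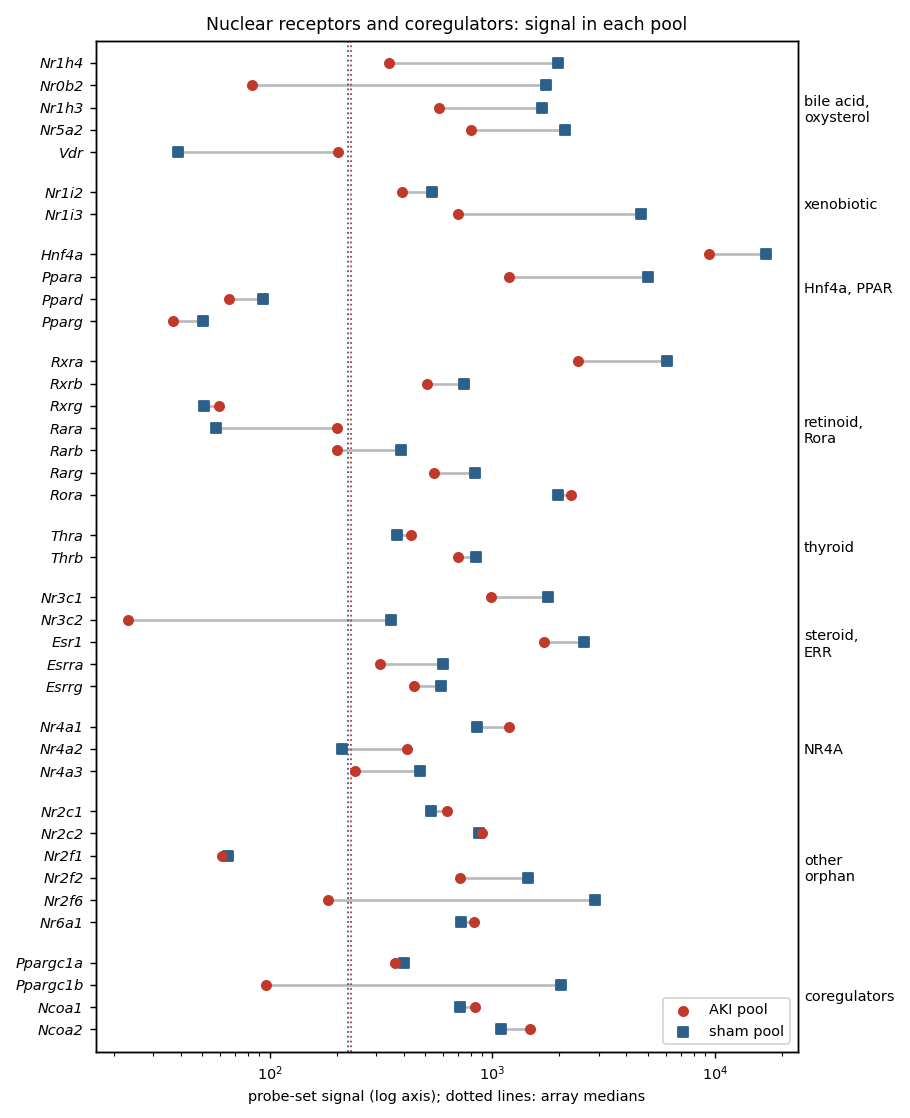
Signal of the highest-level probe set of each of the 38 measured genes in the AKI pool (red circles) and the sham pool (blue squares), on a log axis, grouped by role, with the array medians as dotted lines. Nr0b2, Nr2f6, Nr3c2 and Ppargc1b are right of the sham median in the sham pool and left of the AKI median in the AKI pool, and Hnf4a is far above both medians in each pool.

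The scaling of the arrays bears on all of these values. Centring the arrays on 18 hybridization control probe sets moved every difference up by 0.30, and centring on reference genes moved every difference by -0.29. The number of members at least 2-fold lower was 10 under the first and 16 under the second. Over all genes, higher calls made up 45.6% of the 2-fold calls with the authors' scaling, 67.5% with hybridization controls and 25.9% with reference genes. Differences smaller than these shifts have no settled sign and are given below as values alone.

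Of the 6 genes for bile acid and oxysterol receptors and for related receptors, 5 were measured. The 4 that passed the filter were each lower in the AKI pool by 2-fold or more, against 12.4% of all genes, and Nr0b2 is one that passed through the sham array alone and so had to be lower. The other, Vdr, was weak in both pools. Nr1h4 encodes FXR, the receptor that senses bile acids in hepatocytes. Its single probe set had a signal of 342.2 in the AKI pool and 1978.1 in the sham pool, a difference of -2.31 or 4.95-fold. Nr0b2 encodes SHP, a receptor without a DNA-binding domain that FXR induces and that represses bile acid synthesis genes. Its signal was 83.0 in the AKI pool and 1746.5 in the sham pool (-3.55, 11.7-fold lower), and the AKI value lies below the array median, so the size of the fold is loosely fixed. The oxysterol receptor gene Nr1h3, which encodes LXR alpha, had a signal of 576.8 in the AKI pool and 1674.3 in the sham pool (-1.43). The genes of FXR and LXR alpha were therefore both lower, each on a single probe set.

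Nr5a2 encodes LRH-1, a receptor that supports transcription of Cyp7a1 and Cyp8b1. It had 4 probe sets, whose signals in the AKI pool were 799.7, 393.5, 299.6 and 99.1, against 2130.3, 2444.4, 995.8 and 214.2 in the sham pool in the same order. All 4 were lower in the AKI pool, by differences of -1.34, -2.43, -1.52 and -0.74. The one that stands for the gene thus gave a smaller difference than 2 of the others. The vitamin D receptor gene Vdr, whose product also binds secondary bile acids, had signals of 202.5 and 123.5 in the AKI pool against 38.9 and 9.4 in the sham pool. Its 2 probe sets gave 1.31 and 1.27, but all 4 signals lie below the array medians.

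The upstream sequences of the genes with some of the largest differences are shown because these genes moved the same way and share a family. For each, the 250 bases before the annotated start are given on the gene's strand from RefSeq (build GRCm38.p6). These are Nr0b2 (chr4:133553126-133553375, plus strand), Nr1h4 (chr10:89506659-89506908, minus strand), Nr1i3 (chr1:171213720-171213969, plus strand) and Nr2f6 (chr8:71381953-71382202, minus strand). Capitals mark any match on either strand to AGGTCA, the hexamer that many nuclear receptors bind, to TATAAA or to TGACGT, the core of the cyclic AMP response element. Each window held at most 1 match.
Nr0b2: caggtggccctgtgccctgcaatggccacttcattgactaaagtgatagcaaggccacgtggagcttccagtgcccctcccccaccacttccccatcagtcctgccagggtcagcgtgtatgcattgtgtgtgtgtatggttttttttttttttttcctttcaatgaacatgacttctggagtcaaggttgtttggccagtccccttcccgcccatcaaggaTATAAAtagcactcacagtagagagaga
Nr1h4: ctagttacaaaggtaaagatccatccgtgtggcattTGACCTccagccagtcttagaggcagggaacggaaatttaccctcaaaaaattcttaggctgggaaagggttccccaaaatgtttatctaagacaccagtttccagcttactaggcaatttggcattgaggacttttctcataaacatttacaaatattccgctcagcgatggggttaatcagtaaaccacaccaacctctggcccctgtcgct
Nr1i3: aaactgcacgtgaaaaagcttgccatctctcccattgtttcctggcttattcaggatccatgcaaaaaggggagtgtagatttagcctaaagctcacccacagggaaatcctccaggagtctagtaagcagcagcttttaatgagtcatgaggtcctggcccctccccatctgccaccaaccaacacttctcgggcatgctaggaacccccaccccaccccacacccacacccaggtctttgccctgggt
Nr2f6: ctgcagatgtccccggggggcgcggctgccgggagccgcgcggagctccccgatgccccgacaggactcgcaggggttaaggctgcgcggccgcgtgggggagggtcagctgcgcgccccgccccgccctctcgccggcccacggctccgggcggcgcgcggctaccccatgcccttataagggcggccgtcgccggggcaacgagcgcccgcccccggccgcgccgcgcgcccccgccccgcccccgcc

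The TATAAA of Nr0b2 begins 28 bases before the start, and the AGGTCA match of Nr1h4, which reads TGACCT on the gene's strand, begins 214 bases before it. The windows of Nr1i3 and Nr2f6 held none of the 3 motifs. The 4 windows differ in composition. Nr2f6 has 42 CG dinucleotides and 82.4% G and C, against 3 and 50.0% in Nr0b2, 5 and 44.4% in Nr1h4 and 2 and 53.2% in Nr1i3. In the RefSeq set 36 of the 40 members matched, with 56 upstream windows. Of the 10 members at least 2-fold lower 9 matched, and Ppargc1b did not. AGGTCA was in 3 of the 12 windows of members at least 2-fold lower (Nr1h4, Nr5a2 and Rxra), in 6 of the 44 windows of the other members, and in 14.0% of all 32851 windows. TATAAA was in 2 of the 12, in 4 of the 44 and in 12.4% of all. TGACGT was in 0 of the 12, in 3 of the 44 (Nr4a3, Ppargc1a and Nr2c1) and in 6.47% of all. The windows of the lower members had a median G and C content of 59.2%, the other members 60.4% and all windows 52.4%. A match describes letters in these windows alone.

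The xenobiotic receptors differed from each other in size. Nr1i3 encodes CAR, which induces drug-metabolising enzymes such as Cyp2b10. Its signal was 700.8 in the AKI pool and 4651.7 in the sham pool, a difference of -2.61 or 6.11-fold. Nr1i2 encodes PXR, the other main drug receptor of liver. Its 2 probe sets had signals of 393.3 and 166.5 in the AKI pool, against 534.8 and 325.5 in the sham pool, giving -0.38 and -0.74. Both are negative and under 2-fold.

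Hnf4a and the peroxisome proliferator-activated receptors control hepatocyte identity and fatty acid use. Ppara, the fatty acid receptor that drives fatty acid oxidation in fasting, had 3 probe sets with signals of 1189.2, 1520.0 and 1232.7 in the AKI pool, against 5001.6, 3380.4 and 3440.1 in the sham pool. All 3 were more than 2-fold lower in the AKI pool, with differences of -2.01, -1.12 and -1.43. Hnf4a, a receptor on which much of the hepatocyte gene programme depends, was lower on all 4 probe sets but by less. Its strongest probe set had a signal of 9432.5 in the AKI pool and 16869.6 in the sham pool (-0.83), and the other 3 gave -0.98, -0.46 and -0.97. No probe set of Hnf4a reached 2-fold on this scale, although the plain ratio of the signals without the pseudocount does so for those at -0.98 and -0.97, the second of them at 2.04 (sham over AKI). Ppard (65.8 in the AKI pool, 93.9 in the sham pool) and Pparg (36.8 in the AKI pool, 50.4 in the sham pool) were below the array median in both pools, at -0.27 and -0.17.

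Retinoid X receptors are the shared dimer partners of FXR, LXR, CAR, PXR, PPARs and the retinoic acid receptors. The gene of the main liver form, Rxra, did not give 1 answer across its probe sets. The strongest had a signal of 2424.3 in the AKI pool and 6103.2 in the sham pool (-1.31). A second had 1617.0 in the AKI pool and 1601.6 in the sham pool (0.01), and another was weak, at 28.7 in the AKI pool and 40.1 in the sham pool (-0.15). The mean of its probe sets was -0.48, which is not past 2-fold. Rxrb was at 507.9 in the AKI pool and 742.8 in the sham pool (-0.49), and Rxrg was weak, at 59.4 in the AKI pool and 50.8 in the sham pool (0.10).

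Among the retinoic acid receptors, Rarb had a signal of 201.7 in the AKI pool and 387.9 in the sham pool (-0.75), and the stronger probe set of Rarg had 545.0 in the AKI pool and 833.3 in the sham pool (-0.55). Rara went the other way, with 200.3 in the AKI pool and 57.4 in the sham pool (1.07), on a single probe set under the array median in both pools. Rora, a receptor of the clock and of lipid metabolism, had 9 probe sets, the most of any member. Of the 8 past the filter, 4 were above 0 and 4 below, from -0.81 to 0.57, and the strongest was at 0.18. Thyroid hormone receptors were also near 0. Thrb, the main form in liver, had a signal of 701.7 in the AKI pool and 845.2 in the sham pool (-0.25), and Thra had 432.1 in the AKI pool and 373.0 in the sham pool (0.18).

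**Figure D2:**
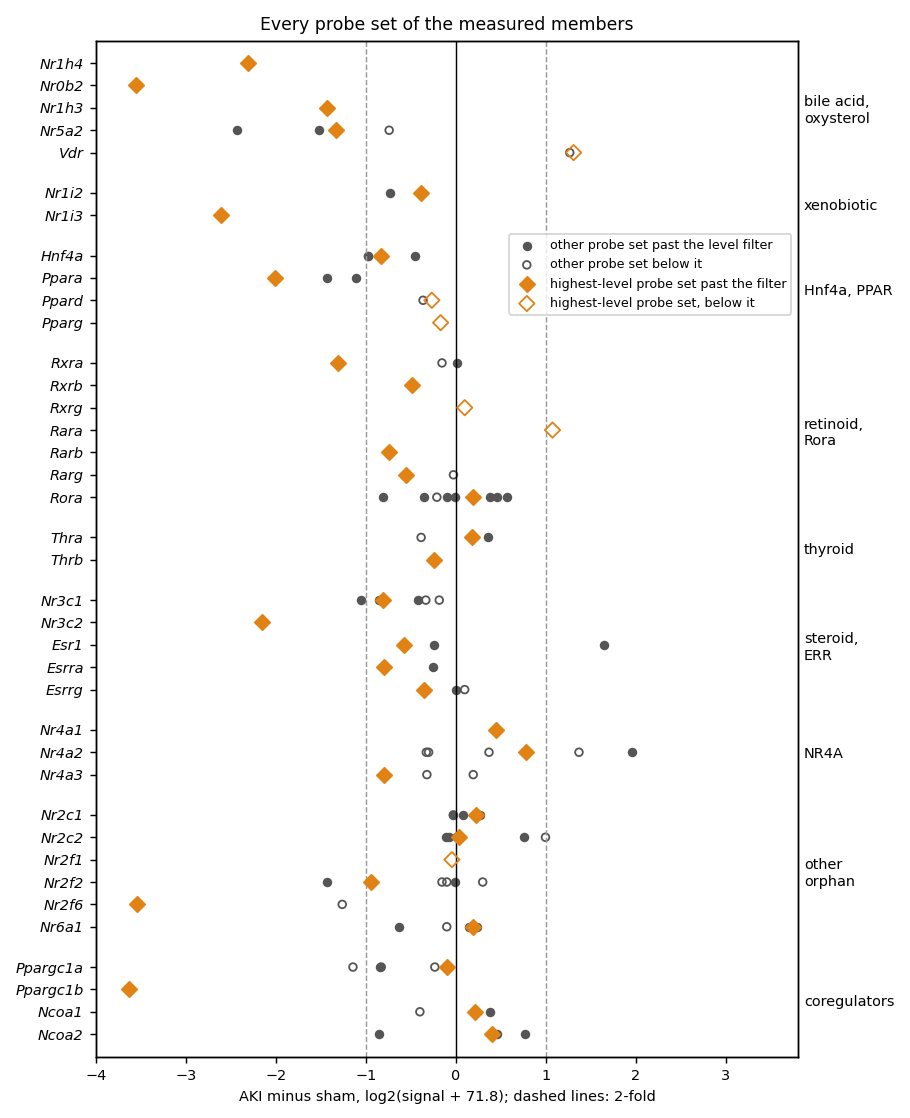
Difference between the AKI and sham pools for each of the 107 probe sets of the 38 measured genes, on the log2(signal + 71.8) scale. Orange diamonds mark the probe set that stands for the gene, filled symbols are past the level filter, and dashed lines mark 2-fold. The 4 probe sets of Nr5a2 and the 3 of Ppara all lie below 0, whereas those of Rxra (-1.31 to 0.01), Esr1 and Nr4a2 do not all lie on 1 side of it.

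All 5 steroid and estrogen-related receptor genes had a negative difference, but only Nr3c2 passed 2-fold. Nr3c2, the mineralocorticoid receptor, had a signal of 23.2 in the AKI pool and 351.4 in the sham pool (-2.16), the AKI value being far below the array median. Its difference ran from -3.86 with a pseudocount of 1 to -1.20 with the table median as pseudocount. Nr3c1, the glucocorticoid receptor, had 6 probe sets and all were below 0. Its strongest had a signal of 984.5 in the AKI pool and 1778.5 in the sham pool (-0.81), and the 4 past the filter ran from -1.05 to -0.42. Esrra, a receptor without a known hormone that works with Ppargc1a on mitochondrial genes, had 313.9 in the AKI pool and 599.6 in the sham pool (-0.80), and its second probe set was at -0.25. Esrrg was at -0.36.

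The estrogen receptor gene Esr1 had probe sets that disagreed in sign. The strongest had a signal of 1707.7 in the AKI pool and 2586.6 in the sham pool (-0.58) and a second 195.1 in the AKI pool and 243.5 in the sham pool (-0.24). Another, with 389.2 in the AKI pool and 75.8 in the sham pool, was at 1.64, so the mean over probe sets was 0.27. The cause of this disagreement was not tested.

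NR4A receptors are early response genes whose products act without a known ligand. None of the 3 passed 2-fold on its strongest probe set. Nr4a1 had a signal of 1190.4 in the AKI pool and 853.5 in the sham pool (0.45). Nr4a2 had 415.5 in the AKI pool and 211.4 in the sham pool (0.78), while its second probe set past the filter had 477.2 in the AKI pool and 69.3 in the sham pool (1.96). Its other 4 probe sets were below the medians and ranged from -0.33 to 1.37. Nr4a3 had 242.4 in the AKI pool and 475.9 in the sham pool (-0.80). Nr4a1 and Nr4a2 stayed above 0 and Nr4a3 below 0 under each of the alternatives that gave them a value.

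In the group of other orphan receptors, Nr2f6 stood far from the rest. Nr2f6 belongs to the COUP-TF family, whose members mostly repress transcription. Its stronger probe set had a signal of 182.1 in the AKI pool and 2894.8 in the sham pool (-3.55, 11.7-fold lower), and its weaker one had 7.1 in the AKI pool and 117.8 in the sham pool (-1.26). Its relative Nr2f2 had a signal of 717.7 in the AKI pool and 1447.6 in the sham pool (-0.94), with its other 5 probe sets between -1.44 and 0.30. Another relative, Nr2f1, was weak, at 60.9 in the AKI pool and 65.1 in the sham pool (-0.04). The testicular receptor genes Nr2c1 (627.5 in the AKI pool, 528.4 in the sham pool) and Nr2c2 (899.6 in the AKI pool, 875.6 in the sham pool) were at 0.22 and 0.04. Nr6a1, the germ cell nuclear factor gene, was at 0.19, with 828.7 in the AKI pool and 719.7 in the sham pool.

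The coactivators of the PGC family differed from each other in size. Ppargc1b, which in mouse liver works with SREBP and estrogen-related receptors on lipid and mitochondrial genes, was, with Nr0b2 and Nr2f6, among the members with the largest differences. Its only probe set had a signal of 96.8 in the AKI pool and 2027.1 in the sham pool (-3.64, 12.4-fold lower). The AKI value lies below the array median, and with a pseudocount of 1 the difference was -4.37, beside -4.38 for Nr0b2. Ppargc1a, the coactivator of fasting metabolism, had 5 probe sets, all below 0 and between -1.15 and -0.10. The strongest had a signal of 367.5 in the AKI pool and 400.4 in the sham pool (-0.10). The steroid receptor coactivator genes were nearer 0. Ncoa1 had 836.9 in the AKI pool and 713.0 in the sham pool (0.21), and Ncoa2 had 1475.9 in the AKI pool and 1098.4 in the sham pool (0.40), with probe sets from -0.86 to 0.77.

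Probe sets give the only check within these arrays. Of 19 members with several probe sets past the filter, 12 had all of them on the same side of 0, and Esr1, Ncoa2, Nr2c1, Nr2c2, Nr6a1, Rora and Rxra did not. Of the 10 members at least 2-fold lower, 3 had several probe sets past the filter, and Nr5a2 and Ppara were lower by at least 2-fold on each of these. The other 7 rest on 1 probe set past the filter, so they have no second reading at that level.

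**Figure D3:**
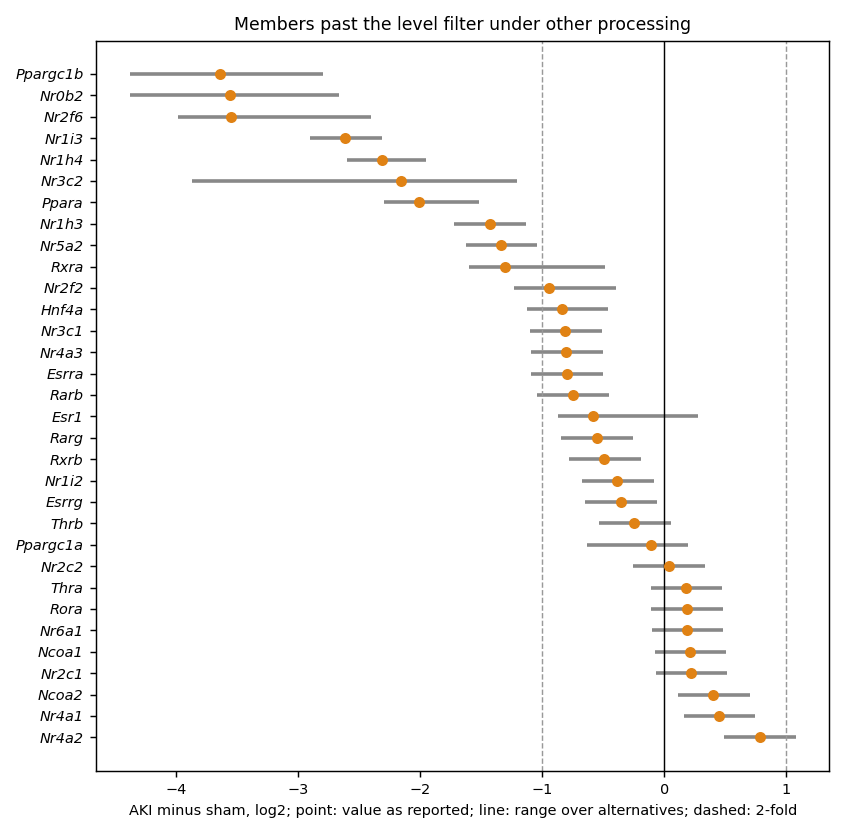
Difference between the AKI and sham pools for the 32 genes past the level filter (points) with the range over the alternative settings that gave a value (lines), log2 scale, with 2-fold as dashed lines. The 9 genes from Ppargc1b down to Nr5a2 stay left of the lower 2-fold line along their whole range, whereas the line of Rxra crosses it.

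Relatives outside the list were compared by the same rule. Of 12 other nuclear receptor genes, 7 passed the filter, with a median of 0.25. Nr2e1 (330.0 in the AKI pool, 85.5 in the sham pool, 1.35) was higher and Nr5a1 (287.8 in the AKI pool, 692.3 in the sham pool, -1.09) was lower. Each is 14.3% of the 7, against 10.4% higher and 12.4% lower over all genes. Esrrb was at 0.50, with its probe sets from -0.37 to 0.50, and Rorb at 0.31. Of 24 further coregulator genes, 22 passed the filter, with a median of 0.20. Of these 22, 4 were at least 2-fold higher (18.2%, against 10.4% of all genes) and 1 lower (4.55%, against 12.4%). Pprc1, a further member of the PGC coactivator family, was higher, with 1373.0 in the AKI pool and 346.9 in the sham pool (1.79). Tbl1xr1, a subunit of the NCoR corepressor complex, had 6633.7 in the AKI pool and 1978.9 in the sham pool (1.71). Ncoa5 (1.16) and the CREB coactivator gene Crtc2 (1.12) were higher too, and Smarcd1, a chromatin remodelling subunit, was lower (-1.85). Within the PGC family, then, the signals of Ppargc1b and Pprc1 differed in opposite directions, and each is a single probe set past the filter. With centring on reference genes the medians of both lists turn negative, and the medians near 0 given below for the LXR, CAR and PXR, retinoic acid and Esrra lists also turn sign under one or the other centring.

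Known target genes of the members gave a mixed picture. Among 10 genes that Nr1h4 induces, 8 passed the filter, with a median of -0.75. Of these 8, 3 were at least 2-fold lower (37.5%, against 12.4% of all genes) and 0 higher (against 10.4%). Below the filter, Slc51b had 169.8 in the AKI pool and 9.2 in the sham pool (1.58), and Slc51a was at -0.29. The bile salt export pump gene Abcb11 had a signal of 2270.2 in the AKI pool and 14515.0 in the sham pool (-2.64). Baat, which conjugates bile acids, was at -1.96, the phospholipid transporter gene Abcb4 at -1.14, and the receptor gene Fgfr4 at -0.93. The 4 bile acid genes that Nr0b2 represses were also negative. Cyp7a1, the rate-limiting enzyme of bile acid synthesis, had 433.2 in the AKI pool and 11475.1 in the sham pool (-4.52), Cyp8b1 was at -2.62, the bile acid importer gene Slc10a1 at -1.22 and Cyp27a1 at -0.31. Thus the repressor gene Nr0b2 and 3 of the 4 genes it is known to repress were all lower in the AKI pool.

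Targets of the LXR receptors were mixed. Of 11 past the filter, 2 were higher by 2-fold or more (18.2%, against 10.4% of all genes) and 4 lower (36.4%, against 12.4%). The median was -0.20. The cholesterol exporter gene Abca1 had a signal of 24641.4 in the AKI pool and 5878.0 in the sham pool (2.05), and the desaturase gene Scd1 was at 1.20. The sterol exporter genes Abcg5 (-1.91) and Abcg8 (-1.26), the lipogenic factor gene Srebf1 (-1.21) and the fatty acid synthase gene Fasn (-1.18) were lower. Targets of CAR and PXR had a median of -0.11 over 14 genes, 1 higher and 1 lower by 2-fold or more. Each is 7.14% of the 14, below the shares over all genes (10.4% higher and 12.4% lower). Cyp2b10, the classical CAR target, had 2242.0 in the AKI pool and 589.9 in the sham pool (1.81), and its 3 probe sets ran from 1.40 to 1.94, while Nr1i3 itself was lower. Aldh1a1 was at -1.10, the heme synthesis gene Alas1 at -0.87 and the export pump gene Abcc2 at -0.74.

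Of 20 Ppara targets past the filter, 4 were higher and 4 lower by 2-fold or more (20% each), and the median was -0.57. Over all genes the shares were 10.4% higher and 12.4% lower. The higher ones were the pyruvate dehydrogenase kinase gene Pdk4 (7.13), Angptl4 (1.18), an inhibitor of lipoprotein lipase, and Plin2 (2.04) and Cidec (2.98), which coat lipid droplets. The lower ones were the thioesterase gene Acot3 (-2.60), the mitochondrial oxidation gene Hadha (3008.4 in the AKI pool, 10686.4 in the sham pool, -1.80), Vnn1 (-1.33) and the fatty acid hydroxylase gene Cyp4a14 (-1.29). Hnf4a targets had a median of -0.33 over 16 genes, and the gluconeogenic genes Pck1 (-4.48) and G6pc (-4.35) were the 2 past 2-fold. These 2 are 12.5% of the 16, near the 12.4% of all genes that were at least 2-fold lower. Pck1 had probe sets up to -0.48. Apoa4 was at 0.89 and the clotting factor gene F7 at -0.62.

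Glucocorticoid receptor targets had the highest median of these target lists, 0.56. Of 13 past the filter, 5 were higher (38.5%, against 10.4% of all genes) and 3 lower (23.1%, against 12.4%) by 2-fold or more. The metallothionein genes Mt1 (88778.9 in the AKI pool, 5715.3 in the sham pool, 3.94) and Mt2 (3.47), the kinase gene Sgk1 (1.48), Zbtb16 (1.07) and the phosphatase gene Dusp1 (1.06) were higher. Pck1, Tsc22d3 (-1.87) and the tryptophan dioxygenase gene Tdo2 (-1.47) were lower. Zbtb16 had probe sets from -0.04 to 2.48 and Tsc22d3 from -1.87 to 0.29. Thyroid hormone targets had a median of -0.36 over 7 genes, 3 of them at least 2-fold lower (42.9%, against 12.4% of all genes). These were the deiodinase gene Dio1 (1768.4 in the AKI pool, 8226.6 in the sham pool, -2.17), the malic enzyme gene Me1 (-1.19) and Fasn. Gpd2 was at 0.62. Of the retinoic acid targets 3 of 7 passed the filter. The retinaldehyde reductase gene Dhrs3 had 465.6 in the AKI pool and 3503.2 in the sham pool (-2.73), whereas the retinoic acid hydroxylase gene Cyp26a1 was at 0.99 and Hoxa5 at 0.15. Mitochondrial targets of Esrra and Ppargc1a had a median of -0.07 over 12 genes, and none passed 2-fold on the probe set that stands for it. Acadm (-0.97), Uqcrc1 (-0.89), Idh3a (-0.85) and Nrf1 (0.59) had the largest differences.

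**Figure D4:**
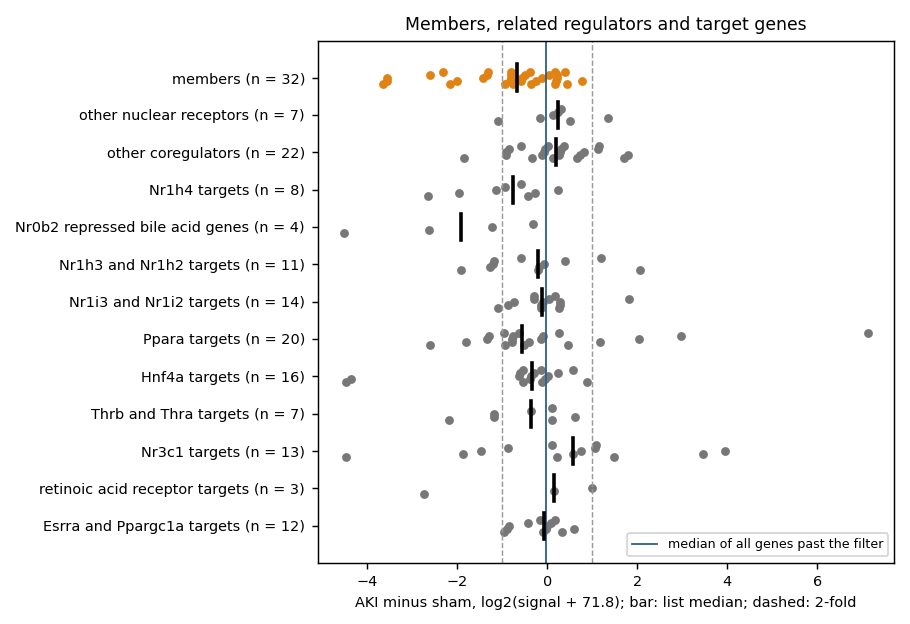
Differences between the AKI and sham pools (x axis, log2(signal + 71.8) scale) for the 32 members past the level filter (orange) and for genes of related and target lists (grey), with each list's median as a black bar, the median of all genes as a blue line and 2-fold as dashed lines. The member median of -0.66 lies left of the line of all genes at -0.02, and the targets of Ppara and Nr3c1 extend far to both sides.

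Several of the genes named in these lists had probe sets past the filter that differed in size. They ran from 0.57 to 1.71 for Tbl1xr1, from -1.53 to -0.02 for Fgfr4 and from 1.18 to 3.30 for Angptl4. For Gpd2 they ran from 0.62 to 2.09, for Hoxa5 from 0.15 to 1.44 and for Idh3a from -1.57 to -0.05. Those of Me1 ran from -1.19 to -0.68, so not every one was 2-fold lower. Genes can sit in several lists and respond to several receptors, and the share of each receptor in these values was not tested.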

How the data were processed

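Liver RNA of 2 pools, 1 AKI and 1 sham, was measured on 1 Affymetrix mouse array each, from 8 ug of total RNA per the labels' protocols. The values deposited by the authors are linear signal intensity values per probe set. The software and genome build are not given in the sources used here. With 2% of probe sets trimmed at each end, the mean was 500.00 on both arrays, so the authors had scaled them to a common target, which removes any difference in total mRNA. Of 45101 probe sets, 64 are controls and 34945 carry 1 gene symbol in the platform annotation, 932 several and 9160 none. RefSeq gene numbers (GRCm38.p6) matched 34741 and altered 0 symbols.

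Values were taken as log2(signal + 71.8). The highest-level probe set stood for a gene, and the filter was the array median. The number of arrays limits the precision, and no p-value is given. All measured members were named with a value. In each related or target list (not the cell marker lists) the 4 genes with the largest absolute difference past the filter were named, and further ones where a count of at most 5 needed them. Among the Nr1h4 targets those below the filter were named too. Members and lists were chosen with earlier results of these data known. Alternatives changed the scaling, the filter (none or the 75th percentile), the pseudocount (1 or 228.7) and the choice of probe sets. Centring on reference genes (10 of 13 measured) and the alternatives for probe-set agreement were added after seeing the data. The computation was tested on simulated data. Tools were statsmodels 0.14.6 (lowess, fraction 0.3), scipy 1.17.1, pandas 2.3.3 and numpy 2.4.6 in Python 3.11.15, and matplotlib 3.10.9 for figures.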

Additional observations from a re-analysis of the deposited data

How the results depend on the processing

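The count of members at least 2-fold lower, 10, was 16 with centring on reference genes and between 8 and 11 under the other 10 alternatives. The count at least 4-fold lower, 7, was between 4 and 7. The count of members at least 2-fold higher, 0, was 1 with centring on hybridization controls (Nr4a2) and 2 without the level filter (Vdr and Rara). The median difference of members, -0.66, was -0.37 with centring on hybridization controls, -0.44 without the level filter, -0.51 with the mean of all probe sets and -0.95 with centring on reference genes. With the level filter at the 75th percentile 5 of 7 members with several probe sets had all on the same side of 0, against 12 of 19, because fewer probe sets pass. With centring on hybridization controls this was 10 of 19, and without the level filter 11 of 24. Rxra was not past 2-fold with the mean of probe sets (-0.48). Nr1h3 and Nr1i3 gave no value without probe sets of suffix _s_at, _x_at or _a_at, and Nr3c2 none with the stricter filter. Over all genes past the filter, 1370 were at least 2-fold higher and 1634 lower. These counts were 2211 and 1066 with hybridization controls, 883 and 2531 with reference genes, and 841 and 1063 with the table median as pseudocount. No member at least 2-fold lower changed sign under any alternative run. Thrb and Ppargc1a turned positive with hybridization controls, Nr2c2, Thra, Rora, Nr6a1, Ncoa1 and Nr2c1 turned negative with reference genes, and with the mean of probe sets Esr1 turned positive (0.27) and Nr6a1 negative (-0.034). No paired analysis was possible because each group is 1 pool on 1 array. Weak signals limit Nr0b2, Nr2f6, Nr3c2 and Ppargc1b, whose AKI values lie below the array median, and the size of their differences depends on the pseudocount.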
